A study of Rattus norvegicus with 3 samples.

Results

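The genes described here encode the proteins that bind, mark and cut out the introns of pre-mRNA: the heterogeneous nuclear ribonucleoproteins (hnRNPs), the serine and arginine rich (SR) proteins, the small nuclear ribonucleoprotein (snRNP) proteins and the SF3a and SF3b subunits of the U2 snRNP. They were chosen by symbol alone, as the entries starting with HNRNP, SRSF and a digit, SNRP, or SF3A or SF3B and a digit, with 1 hnRNP gene left out by the same rule. This gave 51 genes of the 12771 entries in the table, of which 18 are hnRNP, 11 SR, 14 snRNP and 8 SF3 genes. RNA came from rat spinal cord dissociated by a cold-active protease, from the cell-free supernatant over the pelleted cells, a fraction meant to be rich in axonal RNA. The animals were female Sprague Dawley rats aged 3 months. In the No-SCI group the vertebral lamina was opened at T9 and the cord left intact, in the SCI group the cord was also contused, and tissue just rostral to that level was taken 24 h later. The labels give 2 No-SCI libraries and 1 SCI library, while 2 animals per condition are stated for the study.

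Every gene has 1 deposited value per group, in FPKM, a fragment count scaled by transcript length and library size that can therefore be compared between genes. There is no value for a single animal and no read count. The depth behind a value and the spread between animals are unknown, so no test, interval or standard deviation can be given, and all comparisons below are between 2 group values. SCI divided by No-SCI is given as a fold or on the log2 scale, without a pseudocount, and a gene is counted as called when that ratio is at least 1.5-fold in either direction.

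In the nucleus, hnRNPs coat nascent transcripts and often mask splice sites, while SR proteins bind exonic enhancers and help the splicing machinery settle on nearby sites. The snRNPs carry the catalytic and recognition RNAs of the spliceosome, most of them held by a ring of Sm proteins and U6 by a ring of related LSm proteins, and SF3a and SF3b clamp the U2 snRNP onto the branch point. Several of these proteins also shuttle to the cytoplasm, where hnRNPs such as HNRNPA2B1 and HNRNPR accompany messenger RNAs into cell processes, including axons. What is measured here is the messenger RNA of these proteins and not the proteins or any splicing event.

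Of the 51 genes, 32 had a higher value in SCI than in No-SCI (62.7%), against 43.7% of all entries. At least 1.5-fold higher were 15 genes (29.4%), where 16.9% of all entries were, and at least 1.5-fold lower were 2 genes (3.92%), where 26.3% of all entries were. At a 2-fold minimum the counts were 7 higher and 0 lower, beside 7.96% and 12.1% of all entries. The median log2 ratio of the 51 genes was 0.23 and that of all entries −0.12. The 51 genes therefore lay higher than the bulk of the table, with few large decreases among them. When the ratios were centred on the median of all entries, 19 genes were called higher and 2 lower, and the shares of all entries became 21.0% higher and 21.5% lower.

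**Figure D1:**
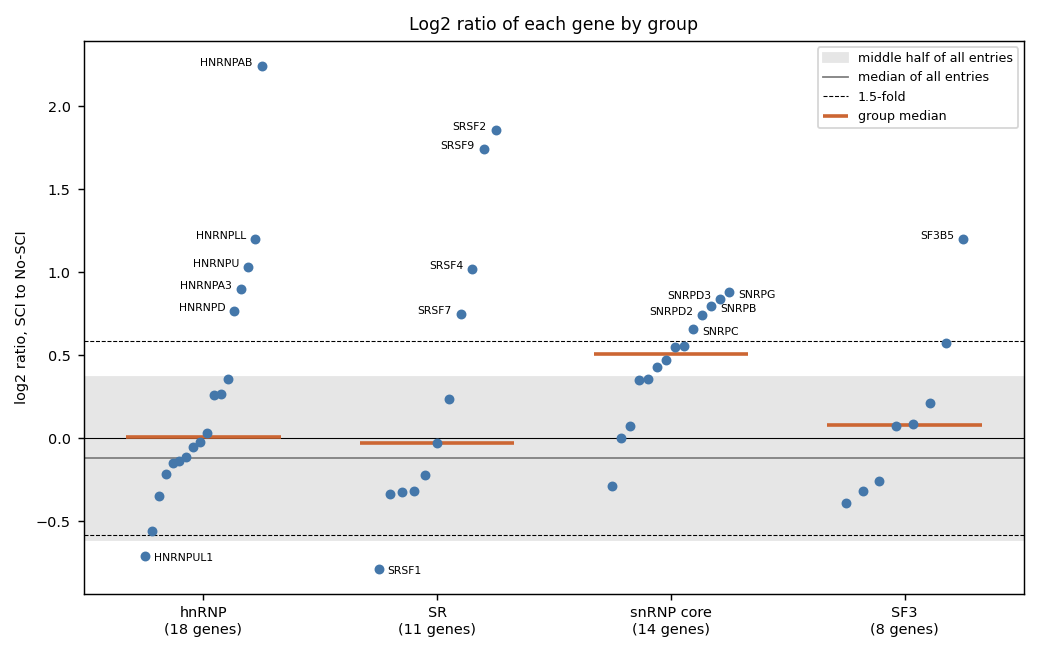
Log2 of SCI over No-SCI (vertical axis) for each of the 51 genes, as points sorted within 4 groups, with group medians as bars and the median and the interquartile range of all 12771 entries as a line and a grey band, and 1.5-fold as dashed lines. The snRNP points sit mostly above the band around a median of 0.51, while the medians of the hnRNP (0.0051) and SR (−0.03) groups are near 0 with a few genes far above it.

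The groups differed in how their genes were spread. In the snRNP group 13 of 14 genes were higher in SCI, with a median log2 ratio of 0.51. The hnRNP group was split, 9 higher and 9 lower, as was the SR group with 5 higher and 6 lower, and their medians were 0.0051 and −0.03 on the log2 scale. In the SF3 group 5 were higher and 3 lower, with a median of 0.08. Called higher were 5 of the hnRNP genes (27.8%), 4 of the SR genes (36.4%), 5 of the snRNP genes (35.7%) and 1 of the SF3 genes (12.5%). The 2 genes called lower were the hnRNP gene HNRNPUL1 and the SR gene SRSF1.

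**Figure D2:**
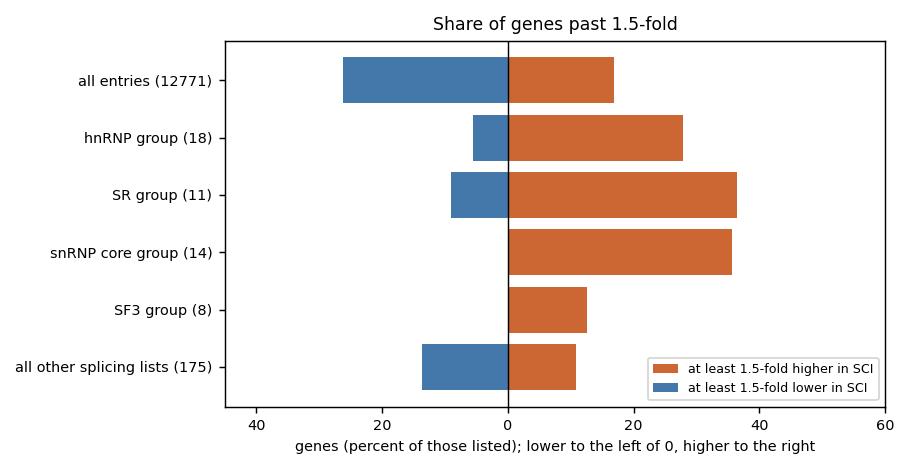
Percent of listed genes (horizontal axis) at least 1.5-fold higher (right of 0) and at least 1.5-fold lower (left of 0) in SCI, for all entries, the 4 groups and the other splicing genes, with the number of genes in brackets. All 4 groups have shorter bars to the left than the 26.3% of all entries, and the snRNP and SF3 groups have none.

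Markers of several cell types moved between the groups of animals. In this cell-free fraction, fewer cells of a type, less RNA per cell and less of that RNA reaching the supernatant cannot be told apart. All 12 meningeal fibroblast markers with a value were higher in SCI, and their summed level went from 77.4 to 943 FPKM. Of 14 oligodendrocyte markers 13 were lower, 10 of them at least 2-fold, with a median log2 ratio of −1.58. Their sums (90387 and 49046 FPKM) are mostly MOBP and BCAS1. Of 8 astrocyte markers 7 were lower, with a median log2 ratio of −1.36 and 6 at least 2-fold lower. The summed astrocyte level (24496 and 20726 FPKM) is mostly APOE, GLUL and NDRG2. Neuronal markers were lower in 9 of 12 cases, 5 of them at least 2-fold, with a median log2 ratio of −0.63, while their sum (1975 and 1829 FPKM) is mostly GAP43, which had 1275 and 1406 FPKM. Of 12 microglia and macrophage markers 6 were lower (1250 and 1420 FPKM), as were all 10 skeletal muscle markers (433 and 47.0 FPKM). Endothelial markers were lower in 5 of 9 cases (60.9 and 77.2 FPKM) and blood markers in 4 of 6 (584 and 631 FPKM). Of all entries, 56.3% were lower in SCI and 12.1% at least 2-fold lower. Neuronal and oligodendrocyte markers were thus present, as the tissue label has it, while the astrocyte markers GFAP, AQP4, SLC1A3, ALDOC and S100B had no value to use here. The part of these shifts in the values of the splicing genes was not tested.

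The hnRNP genes were the most abundant of the 4 groups, their medians being 162 FPKM without and 191 FPKM with injury. HNRNPC, which binds uridine tracts and forms the core of hnRNP particles, had 3200 FPKM in No-SCI and 3083 FPKM in SCI. HNRNPK, a KH-domain protein that binds cytidine-rich RNA, had 1422 and 1282 FPKM, and HNRNPF, which binds guanosine tracts, 1013 and 1038 FPKM. These 3 lay at percentile 98.7 or above among all entries in both groups, and their log2 ratios of −0.05, −0.15 and 0.03 were small. HNRNPA2B1 and HNRNPA1, the classic A/B-type proteins, had 600 and 551 FPKM in No-SCI and 719 and 663 FPKM in SCI, log2 ratios of 0.26 and 0.27. The most abundant hnRNP messages therefore differed little between the groups.

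**Figure D3:**
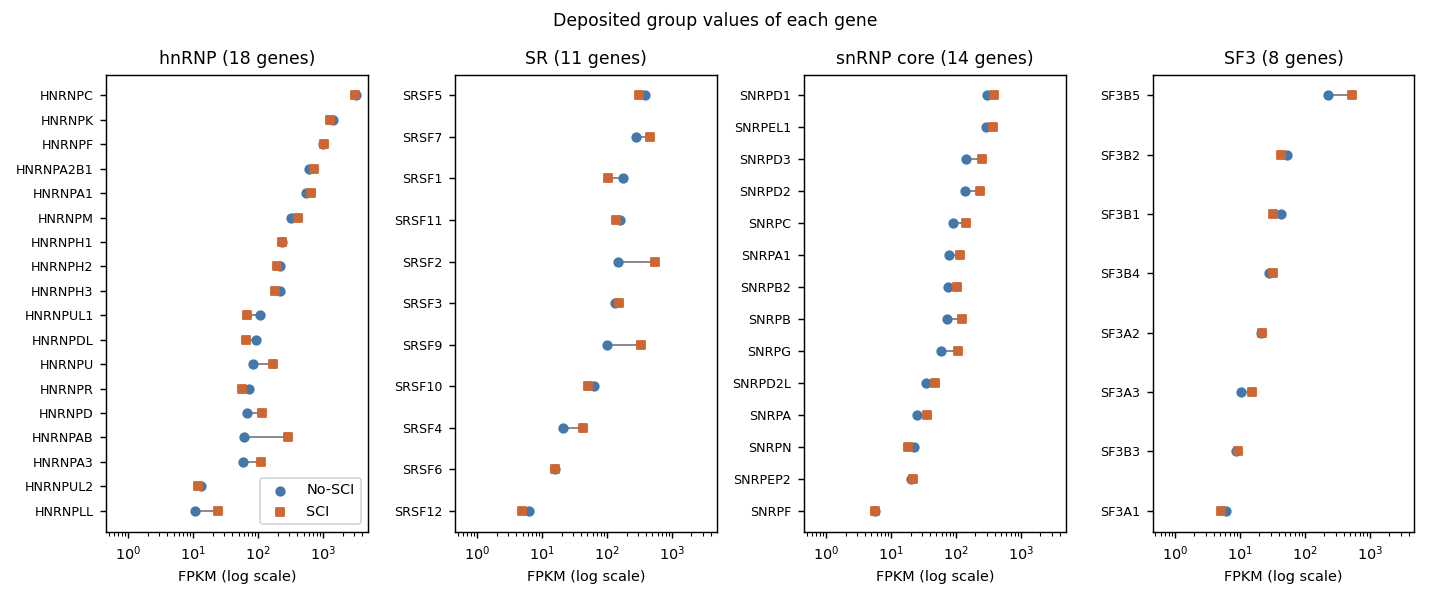
FPKM values of each gene on a log axis, No-SCI as circles and SCI as squares joined by a line, in 4 panels ordered by the No-SCI value. The longest lines belong to HNRNPAB (60.3 to 285 FPKM), SRSF2 (149 to 539 FPKM), SRSF9 (101 to 337 FPKM) and SF3B5 (229 to 528 FPKM), while HNRNPC, HNRNPF and HNRNPH1 overlap.

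The hnRNP genes called higher came from the middle and low part of the range. HNRNPAB, a protein that binds transport and regulatory elements in messenger RNA, went from 60.3 FPKM in No-SCI to 285 FPKM in SCI. This 4.73-fold ratio (2.24 on the log2 scale) was the largest of the 51 genes and lay at percentile 98.8 of all entries. HNRNPLL, known for regulating exon skipping of CD45 in lymphocytes, was at 10.6 and 24.3 FPKM, a 2.30-fold ratio. HNRNPU, which binds chromatin-associated RNA and the nuclear scaffold, was at 82.3 and 169 FPKM, 2.05-fold. HNRNPA3, a further A/B-type protein, was at 58.8 and 110 FPKM (1.87-fold), and HNRNPD, also called AUF1 and known for binding AU-rich elements of unstable messages, at 68.3 and 116 FPKM (1.70-fold). None of these 5 was among the 9 most abundant hnRNP genes in No-SCI.

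Lower in SCI was HNRNPUL1, a relative of HNRNPU, which had 108 FPKM in No-SCI and 66.5 FPKM in SCI, a 1.63-fold lower value. HNRNPDL, a relative of HNRNPD, was at 94.3 and 64.0 FPKM, 1.47-fold lower and so not called. HNRNPR, which binds actin messenger RNA in motor axons, had 71.2 and 56.0 FPKM, a log2 ratio of −0.35. The guanosine-tract binding HNRNPH1, HNRNPH2 and HNRNPH3 had 236, 216 and 215 FPKM in No-SCI and 232, 196 and 185 FPKM in SCI, with log2 ratios from −0.22 to −0.02. HNRNPM had 321 and 411 FPKM, a log2 ratio of 0.36. The log2 ratios of HNRNPH1 (−0.02), HNRNPC (−0.05) and HNRNPUL2 (−0.11) are lower as deposited and turn positive when the median of all entries is centred.

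Among the SR genes the order of levels changed. In No-SCI the highest were SRSF5 with 391 FPKM, SRSF7 with 278 FPKM and SRSF1 with 177 FPKM. In SCI they were SRSF2 with 539 FPKM, SRSF7 with 466 FPKM and SRSF9 with 337 FPKM, while SRSF5 had 310 FPKM and SRSF1 103 FPKM. The summed level of the 11 genes was 1491 FPKM in No-SCI and 2159 FPKM in SCI, a 1.45-fold ratio, although 6 of the 11 were lower.

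SRSF2, also called SC35 and a marker of nuclear speckles, was at 149 FPKM in No-SCI, a 3.63-fold ratio at percentile 98.0 of all entries. SRSF9, a short SR protein closely related to SRSF1, was at 101 FPKM in No-SCI, a 3.35-fold ratio at percentile 97.6. SRSF4, the longest of the classic SR proteins, went from 20.7 to 42.0 FPKM (2.02-fold). SRSF7, an adaptor for messenger RNA export, had a 1.68-fold ratio. These were the 4 SR genes called higher.

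SRSF1, the founding SR protein, was 1.72-fold lower in SCI, a log2 ratio of −0.78 at percentile 18.2 of all entries. SRSF5, SRSF10, SRSF11 and SRSF12 had log2 ratios of −0.33, −0.32, −0.22 and −0.32. Their levels in No-SCI ran from 6.21 FPKM for SRSF12 to 391 FPKM for SRSF5. SRSF3, which like SRSF7 links splicing to export, was at 132 and 155 FPKM, a log2 ratio of 0.23. SRSF6 was at 16.0 and 15.7 FPKM, a log2 ratio of −0.03 that turns positive under median centring.

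Among the 4 groups the snRNP genes had the largest share of higher values. The Sm ring is built in the cytoplasm around most spliceosomal snRNAs, U6 excepted. SNRPG had 59.5 FPKM in No-SCI and 110 FPKM in SCI (1.84-fold). SNRPD3 had 141 and 252 FPKM (1.79-fold). SNRPB had 72.3 and 125 FPKM (1.74-fold). SNRPD2, with 140 and 235 FPKM (1.67-fold), was also called higher. The remaining ring genes did not reach 1.5-fold. SNRPD1, the most abundant of them, had 303 and 385 FPKM, a log2 ratio of 0.35. SNRPF was at 5.62 and 5.63 FPKM, a log2 ratio of 0.0034 that is the smallest in size of the 51. SNRPN, which encodes the SmN protein that takes the place of SmB in neurons and is expressed from the paternal allele, was at 22.5 and 18.4 FPKM, a log2 ratio of −0.29. SNRPN is the single snRNP gene with a lower value in SCI. The median log2 ratio was 0.74 over the 7 ring genes with a value, which count SNRPN beside SNRPB and lack SNRPE. In the same samples 9 of 12 neuronal markers were lower, and whether the value of SNRPN goes with them was not tested.

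The proteins that belong to U1 or U2 snRNPs lay close together. SNRPC, a U1-specific protein that steadies pairing with the donor splice site, went from 91.1 to 143 FPKM (1.58-fold) and was called. SNRPA, which binds a stem-loop of U1 snRNA, had 24.8 and 36.3 FPKM (1.46-fold). SNRPA1, a U2-specific protein, had 77.5 and 114 FPKM (1.47-fold), and its partner SNRPB2 76.7 and 103 FPKM (1.35-fold). All 4 were higher, with log2 ratios from 0.43 to 0.66. Entries SNRPD2L, SNRPEL1 and SNRPEP2 are named as copies of the Sm genes SNRPD2 and SNRPE, and the RefSeq table calls SNRPD2L and SNRPEL1 pseudogenes. Their values of 34.9, 295 and 20.6 FPKM in No-SCI and 48.4, 377 and 21.7 FPKM in SCI are uncertain, because reads of near-identical copies can be split between them. The same limit may hold for the value of SNRPD2. SNRPE itself had no value to use here. Without these copies 10 of the remaining 11 genes were higher.

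Because 4 ring genes were called in the same direction, the 250 bases before the RefSeq start (GRCr8 assembly) of those genes are shown, with SNRPN as the ring gene that was lower, a choice made after the values were seen. The capitals mark matches on either strand to 6 sets of letters searched, and no match overlapped another within these 5 sequences. The letters were CCAAT (the CCAAT box), TATAAA (the TATA box), GGGCGG (the Sp1 GC box), CCGGAAG (an ETS core), TGCGCA (within the NRF1 site) and AAGATGG (within the YY1 site). SNRPB lies on the minus strand at chr3:137832480-137832729, SNRPD2 on the plus strand at chr1:87926159-87926408, SNRPD3 on the minus strand at chr20:13144921-13145170, SNRPG on the plus strand at chr4:120369461-120369710 and SNRPN on the minus strand at chr1:120338920-120339169.
SNRPB: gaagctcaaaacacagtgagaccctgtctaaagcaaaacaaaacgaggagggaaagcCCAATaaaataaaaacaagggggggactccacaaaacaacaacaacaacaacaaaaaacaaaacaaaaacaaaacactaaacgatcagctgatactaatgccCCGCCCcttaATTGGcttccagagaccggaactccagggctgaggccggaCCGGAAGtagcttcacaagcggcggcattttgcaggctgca
SNRPD2: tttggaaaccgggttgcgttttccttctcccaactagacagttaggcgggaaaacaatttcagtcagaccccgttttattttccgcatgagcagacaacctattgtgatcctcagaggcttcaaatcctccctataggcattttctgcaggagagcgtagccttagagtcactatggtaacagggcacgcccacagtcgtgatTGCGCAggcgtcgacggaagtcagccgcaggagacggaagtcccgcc
SNRPD3: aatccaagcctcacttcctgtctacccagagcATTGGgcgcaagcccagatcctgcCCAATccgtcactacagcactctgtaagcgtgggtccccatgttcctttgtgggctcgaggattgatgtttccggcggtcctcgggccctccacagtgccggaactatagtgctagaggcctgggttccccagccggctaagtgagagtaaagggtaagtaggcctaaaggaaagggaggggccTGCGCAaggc
SNRPG: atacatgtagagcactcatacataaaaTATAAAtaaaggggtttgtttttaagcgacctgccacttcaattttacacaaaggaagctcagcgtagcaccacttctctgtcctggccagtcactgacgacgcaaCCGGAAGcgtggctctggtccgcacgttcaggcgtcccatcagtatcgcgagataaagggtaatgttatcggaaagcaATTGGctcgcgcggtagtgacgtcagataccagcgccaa
SNRPN: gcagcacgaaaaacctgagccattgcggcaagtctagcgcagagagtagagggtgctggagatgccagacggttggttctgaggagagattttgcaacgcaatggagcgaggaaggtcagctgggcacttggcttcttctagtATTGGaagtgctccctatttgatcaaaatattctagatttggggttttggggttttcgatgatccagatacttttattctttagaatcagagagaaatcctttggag

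No set of letters was present in all 5 sequences. A CCAAT box was found in SNRPB, SNRPD3, SNRPG and SNRPN, with first bases 193 and 81 bases before the start in SNRPB and 107 bases before it in SNRPN. The ETS core stood 41 bases before the start in SNRPB and 117 bases before it in SNRPG, and the NRF1 letters 47 bases before it in SNRPD2 and 10 bases before it in SNRPD3. Promoters were found for 46 of the 51 genes. Of the 11 snRNP promoters 6 (54.5%) held a CCAAT box, 4 (36.4%) the ETS core, 3 (27.3%) the NRF1 letters, 2 (18.2%) the Sp1 box, 1 (9.09%) the TATA box and 1 (9.09%) the YY1 letters. Of 9762 promoters whose genes had a value here, 3516 (36.0%), 1462 (15%), 1172 (12%), 5655 (57.9%), 682 (6.99%) and 420 (4.3%) held these letters. Of all 27457 RefSeq promoters, with or without a value here, 34.3%, 7.74%, 6.57%, 32.4%, 13.1% and 4.63% held them. The Sp1 box was in 9 of 11 SR and 12 of 17 hnRNP promoters and the CCAAT box in 4 and 12 of them, where 57.9% and 36.0% of the 9762 promoters held these letters. These matches describe letters in a window, and binding was not measured.

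The SF3 genes were the least abundant group, their medians being 24.8 FPKM without and 27.4 FPKM with injury. SF3B5, a very small subunit of SF3b, stood apart with 229 FPKM in No-SCI and 528 FPKM in SCI, a 2.30-fold ratio at percentile 94.3 of all entries. It made up most of the summed level of the group, which was 400 FPKM in No-SCI and 688 FPKM in SCI. The next most abundant, SF3B2 with 53.2 and 42.7 FPKM and SF3B1 with 42.6 and 32.5 FPKM, were lower in SCI, with log2 ratios of −0.32 and −0.39. SF3B1 is the large subunit that closes around the branch point. SF3A3 had 10.4 and 15.5 FPKM, a 1.49-fold ratio just short of the call. SF3B4, SF3B3 and SF3A2 had log2 ratios of 0.21, 0.09 and 0.07, and SF3A1, at 6.12 and 5.12 FPKM, one of −0.26. The SF3b subunits thus had values from 8.86 to 229 FPKM in No-SCI and did not share a direction.

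Related genes were set beside each other in 14 pairs, chosen for their relation after the values had been seen. The ratio of SRSF9 to SRSF1 was 0.569 in No-SCI and 3.28 in SCI, a 5.76-fold shift that put the less abundant of the pair above the other. The ratio of HNRNPU to HNRNPUL1 went from 0.758 to 2.53, that of HNRNPD to HNRNPDL from 0.725 to 1.82, and that of HNRNPAB to HNRNPD from 0.882 to 2.45. In each of these pairs the order of the levels turned over between the groups. SNRPB was 3.21 times as abundant as SNRPN in No-SCI and 6.81 times in SCI. SRSF4 against SRSF5 and SRSF6 shifted by 2.55-fold and 2.07-fold without a change of order. In contrast, HNRNPH1 against HNRNPH2 (1.09 and 1.18) and against HNRNPF (0.233 and 0.224), and SNRPA against SNRPB2 (0.324 and 0.352), stayed close. A ratio within a group does not depend on the scaling of that group, so these shifts are the same under every scaling tried, but without values per animal their spread is unknown.

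**Figure D4:**
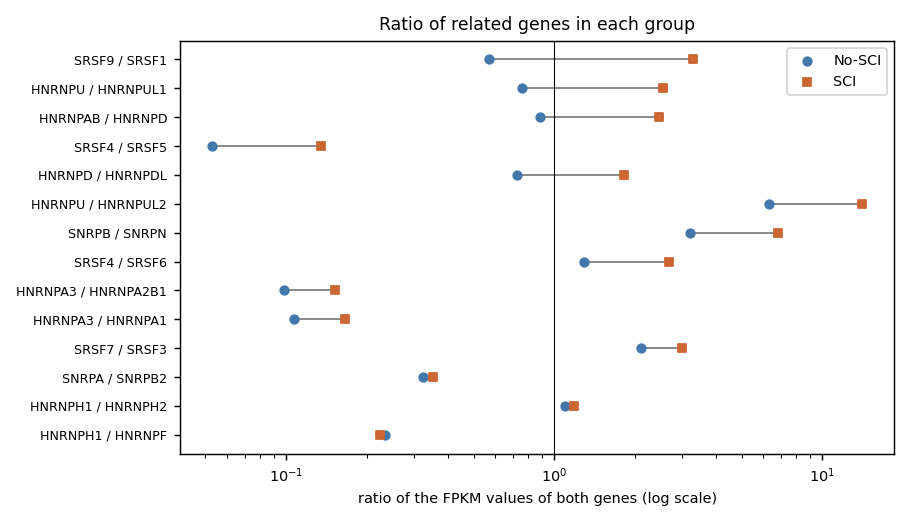
Ratio of the FPKM values of 2 related genes on a log axis, No-SCI as circles and SCI as squares, for 14 pairs ordered by the size of the shift, with a line at a ratio of 1. The SRSF9 to SRSF1 pair crosses the line from 0.569 to 3.28, and the HNRNPH1 to HNRNPF pair hardly moves.

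Other genes of the splicing pathway were taken from 7 lists, of which 175 genes had a value. Of these 94 were higher (53.7%, against 43.7% of all entries) and 81 lower. At least 1.5-fold higher were 19 (10.9%) and at least 1.5-fold lower 24 (13.7%), beside 16.9% and 26.3% of all entries. The median log2 ratio was 0.04, and that of all entries −0.12. The share of large decreases was thus below that of all entries here too, but so was the share of large increases, unlike in the 51 genes. The list most like the snRNP group was that of the LSm genes, relatives of the Sm genes. Most of them form rings on U6 snRNA or on decaying messages, LSM10 and LSM11 belong to the U7 snRNP of histone messages, and LSM12 and LSM14A are in neither kind of ring. All 12 LSm genes with a value were higher, with a median log2 ratio of 0.45. LSM7 (677 and 1303 FPKM, log2 ratio 0.94) and LSM2 (81.5 and 146 FPKM, 0.85) had the largest log2 ratios among those with a mean of at least 10 FPKM. With LSM11 (2.13 and 4.62 FPKM, a low level), 3 of the 12 were at least 1.5-fold higher and 0 lower.

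The other lists were mixed, and their extremes are given among genes with a mean of at least 10 FPKM. The list of U1, U2, U5 and tri-snRNP proteins under other symbols also holds partners and the minor spliceosome proteins SNRNP25, SNRNP35 and SNRNP48. Its 45 genes had 23 higher and 22 lower, with a median of 0.02. Their largest log2 ratios were those of the helicase DHX16 (0.93) and the U4/U6 protein SNU13 (0.65), and the lowest those of CD2BP2 (−0.90) and PRPF18 (−0.89). The 19 genes listed under snRNP assembly had 11 higher and 8 lower and a median of 0.04. Their extremes ran from TGS1 (−0.59) and STRAP (−0.45) to SMN1 (0.43) and GEMIN7 (0.66). The Sm ring genes and the genes of this assembly list thus had medians of 0.74 and 0.04 on the log2 scale. Of 16 genes for branch point and acceptor site recognition 6 were higher and 10 lower, from U2SURP (−0.76) and DDX42 (−0.58) to PHF5A (0.51), a further SF3b subunit, and RBM17 (1.09).

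Of 22 SR-related genes 12 were higher and 10 lower, with a median of 0.12, from SCAF1 (−0.77) and TRA2A (−0.68) to SRRM1 (0.52) and LUC7L (0.60). Among 16 kinases, phosphatases and import receptors 10 were higher and 6 lower, with a median of 0.11. The import receptor TNPO2 (−0.99) and the kinase CLK4 (−0.87) were lowest, and PPP1CC (0.82) and DYRK1B (1.13) highest. All 3 transportins were lower, TNPO1 by a log2 ratio of −0.64 and TNPO3, which carries SR proteins into the nucleus, by −0.43. The 45 hnRNP-like and tissue-restricted regulators had 20 higher and 25 lower and a median of −0.12, close to that of all entries. Lowest were PTBP2 (27.7 and 12.3 FPKM, −1.17) and NOVA1 (36.5 and 16.5 FPKM, −1.15), both splicing regulators of neurons. Highest were RBFOX2 (39.4 and 103 FPKM, 1.39) and RALY (406 and 1054 FPKM, 1.38), an hnRNP C-like protein. PTBP2 and NOVA1 were lower in the same samples as 9 of 12 neuronal markers, and the part of those cells in the values was not tested.

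**Figure D5:**
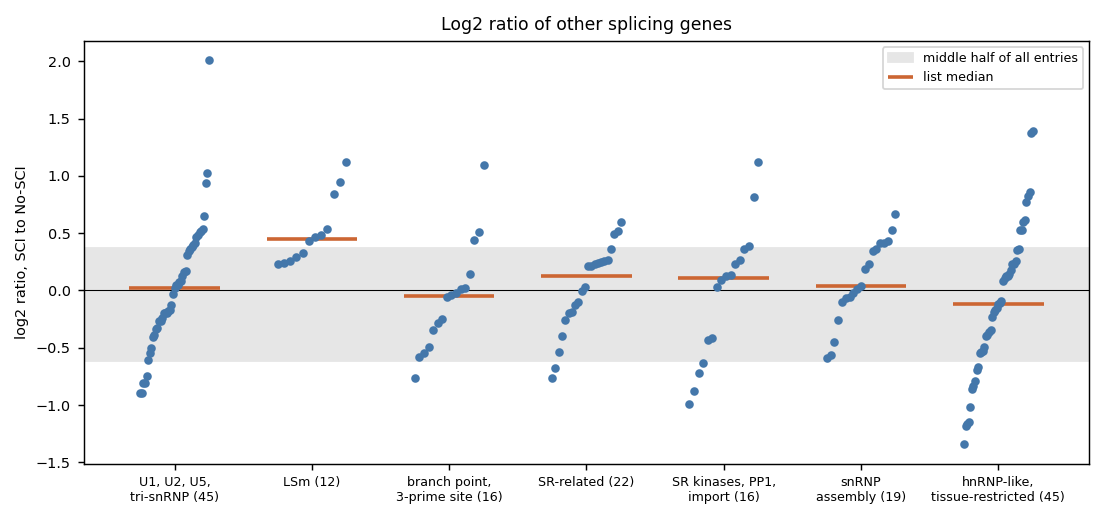
Log2 of SCI over No-SCI (vertical axis) for the other splicing genes, sorted within 7 lists with the number of genes in brackets, list medians as bars and the interquartile range of all entries as a grey band. The 12 LSm genes all lie above 0 around a median of 0.45, and the other lists straddle 0.

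Across the 51 genes the log2 ratio had a Spearman correlation of 0.19 with the mean level, and across all 12771 entries one of 0.05, both over genes that share the same libraries. Within the groups it was 0.42 over the 14 snRNP, 0.25 over the 11 SR, 0.05 over the 8 SF3 and 0.02 over the 18 hnRNP genes, where Pearson's r with the log2 level was 0.60, 0.34, 0.575 and −0.15. In the snRNP group the more abundant genes thus tended to have the higher ratios, and the part of the level was not tested. The most abundant, SNRPD1 and SNRPEL1, had log2 ratios of 0.35 and 0.36, below the group median of 0.51. The mean level contains the SCI value, so level and ratio are not independent. Of the 22 genes at 100 FPKM or more in No-SCI 13 were higher in SCI (59.1%), against 43.8% of the 1923 entries at that level. Of the 29 genes under 100 FPKM 19 were higher (65.5%), against 43.6% of 10848 entries. Together the 51 genes took 0.925% of the summed FPKM of the table in No-SCI and 1.11% in SCI.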

How the data were processed

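Stranded total RNA libraries were made after removal of ribosomal RNA. Before alignment to rn6 with STAR 2.5.4b, every library was reduced to the read number of the smallest, and Cuffdiff (1.3.0 in the submitters' processing notes) was run with upper quartile scaling. Each entry of the deposited table holds 1 FPKM value for No-SCI and 1 for SCI, estimated by the authors over a whole group. The fold change, p and q columns hold the authors' own comparison and were not used. No value per library and no counts are given, so depth and spread are unknown and no test was run. The table has 12771 entries, 12758 symbols and no value below 1. Of the 51 genes none is at 1 and 0 are listed 2 times.

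The log2 ratio, percentiles, medians, sums and counts at 1.5-fold and 2-fold were computed with Python 3.11.15, numpy 2.4.6, pandas 2.3.3 and scipy 1.17.1, and figures with matplotlib 3.10.9. The fold rule was checked on No-SCI values multiplied by set folds without noise, where the outcome was fixed by construction. Symbols were matched to RefSeq (GRCr8), 50 by symbol and 1 by synonym, for names and promoters alone. The genes and lists were chosen with earlier results of these data known, and the pairs and letters searched in promoters after the values were seen. Named with values were the 3 most abundant genes of each group, those past 1.5-fold, and the 2 extremes per list in each direction with a mean of at least 10 FPKM. The other genes, TNPO1 and TNPO3 among them, were named after their values were seen. The gene left out by the rule is not reported here. Alternatives were pseudocounts, scalings, filters, fold minima and other summaries.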

Additional observations from a re-analysis of the deposited data

How the results depend on the processing

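Under 2 pseudocounts, 1 subtracted from both values and 3 scalings (6 settings) all 17 genes past 1.5-fold stayed past it with the same sign. For these 17 the sign was fixed by construction. A constant added to or taken from both values keeps their order. The scalings shift a log2 ratio by at most 0.12, where 1.5-fold is 0.585. The spread between animals is not addressed by any of these settings. Of all 51 genes 4 changed sign under one of these, from lower to higher: HNRNPH1, HNRNPC, HNRNPUL2 and SRSF6. A group median was taken to have moved when it shifted by at least 0.1 on the log2 scale. Median centring (a shift of 0.12) and equal upper quartiles (0.10) moved the median of the 51 genes from 0.23 to 0.35 and 0.34, of the hnRNP group to 0.12 and 0.11, of the SR group to 0.0855 and 0.0712, of the snRNP group to 0.63 and 0.61 and of the SF3 group to 0.20 and 0.18, by construction. Means in place of medians were 0.26 for the hnRNP and 0.33 for the SR group. A mean level of at least 10 FPKM gave 0.10 for the SR group, and the Sm ring alone 0.74. A 2-fold minimum left 7 genes higher and 0 lower, and a 1.3-fold minimum gave 20 higher and 4 lower, beside 24.6% and 35.7% of all entries.

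Values with 7 significant digits are carried by 27 of the 51 genes, and the cause was not tested. Leaving such entries out, an alternative chosen after seeing the data, left 24 genes with 8 lower, 6 at least 1.5-fold higher and 0 at least 1.5-fold lower, beside 17.0% and 18.4% of the entries left. The medians were then 0.58 for the hnRNP, −0.17 for the SR and 0.36 for the snRNP group, with 0.22 for all 24 against 0.0068 for the 5287 entries left. Each group median then rested on part of its group, that of the hnRNP genes on HNRNPAB, HNRNPA3, HNRNPA1 and HNRNPH1 alone. Leaving out the 3 Sm gene copies, also chosen after seeing the data, moved no count or median past these limits. No paired analysis was possible because the table holds 1 value per group, and no library could be left out for the same reason.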

Other observations

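Of 12 RNAs known to stay in the nucleus or to belong to small nuclear particles, 2 had a value here. RPPH1, the RNA of ribonuclease P, was at 13.7 FPKM in No-SCI and 24.3 FPKM in SCI, a log2 ratio of 0.83, and SNHG11 was at 5.20 and 3.63 FPKM, a log2 ratio of −0.52. Their values went in opposite directions.

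The cold-inducible RNA-binding genes RBM3 and CIRBP, chosen after their values were seen, had 332 and 215 FPKM in No-SCI and 588 and 253 FPKM in SCI, log2 ratios of 0.83 and 0.23. YBX1, which packages messenger RNA in the cytoplasm and was also chosen after its values were seen, had 265 and 480 FPKM, a log2 ratio of 0.86.

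In the whole table, entries with 7 significant digits had a median log2 ratio of −0.22 and the other entries one of 0.0068. The cause was not tested. Among the 51 genes the medians were 0.26 for the 27 genes with 7 digits and 0.22 for the 24 others.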
